A study of Mus musculus with 8 samples.

Results

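Vegfb was among the candidate targets of miR-379 considered in this study of mouse mesangial cells, and it was set here beside related growth factor genes in total RNA and in RNA recovered with AGO2. The set holds 9 of the 24639 gene entries, taken by symbol: the ligand genes Vegfa, Vegfb, Vegfc, Pdgfa and Pdgfb, the peptide hormone gene Adm, and the receptor genes Nrp1, Pdgfrb and Pdgfra. The cells were untreated primary mouse mesangial cells (MMC) of the C57BL/6J strain, grown in RPMI medium with foetal bovine serum. They came from wild-type (WT) mice or from mice with a CRISPR-Cas9 nickase deletion at miR-379 (miR-379KO), and nothing but this deletion separates the groups in the labels. Each genotype had 2 total RNA libraries and 2 libraries of RNA immunoprecipitated with AGO2 (AGO2-IP) after UV cross-linking, named A and B. AGO2 is the protein that carries a microRNA to its target RNA, so a target would be recovered less with AGO2 once its microRNA is removed. The labels do not say whether A and B were separate cultures or animals, so p-values measure the spread between these libraries.

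VEGF and PDGF ligands are secreted dimers that bind receptor tyrosine kinases. VEGF-A binds the receptors encoded by Flt1 and Kdr, VEGF-B binds the product of Flt1, and VEGF-C binds that of Flt4, with neuropilin-1 (Nrp1) as a co-receptor. PDGF-A acts through PDGFR-α and PDGF-B through both PDGF receptors. In the glomerulus podocytes supply VEGF-A to the endothelium, and PDGF-B acting on PDGFR-β recruits mesangial cells. Adrenomedullin (Adm) is a vasodilator peptide that acts through Calcrl with a Ramp partner.

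The microRNA and the places in these genes that pair with its seed are shown because a target is usually recognized through bases 2 to 8 of the microRNA. The mature sequence is from RefSeq (GRCm38.p6, the patched form of mm10, chr12:109709065-109709085, plus strand), with bases 2 to 8 in capitals.
mmu-miR-379-5p: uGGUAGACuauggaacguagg
The 7-base match to this seed, GTCTACC, was searched on the sense strand of the longest curated RefSeq 3′-UTR of each gene. It was in the 3′-UTR of 0 of the 9 genes and in 4.06% of the 19140 3′-UTRs searched. The shorter match to bases 2 to 7, TCTACC, was in 2 of the 9, Vegfb and Pdgfb, and in 21.1% of all 3′-UTRs. Vegfb spans chr19:6982472-6987651 and Pdgfb chr15:79995865-80024614, both on the minus strand, and the sites lie in exonic 3′-UTR sequence. Each site is printed with the bases 5′ of it, so that its last base lies opposite base 1 of the microRNA, and TCTACC is in capitals.
Vegfb (chr19:6982552-6982572, minus strand): gaaaaccccaaactTCTACCa
Pdgfb, upstream site (chr15:79996636-79996656, minus strand): ttccggttcatttcTCTACCt
Pdgfb, downstream site (chr15:79996126-79996146, minus strand): tgatcttttgcggtTCTACCc
The Vegfb site starts at base 332 of a 3′-UTR of 418 bases, and the Pdgfb sites at bases 640 and 1150 of one of 1417 bases. Lined up with the microRNA without gaps, 10 of its 21 bases pair at the Vegfb site, against 11 and 9 at the Pdgfb sites. The Vegfb site was the one site of the set that has an A opposite base 1 (TCTACCA), which 7.23% of all 3′-UTRs hold. A match is a description of letters and not a shown binding site.

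The targeted gene could not be checked from these counts. By qPCR the study reported that miR-379 was missing from AGO2-IP RNA of miR-379KO MMC. The Mir379 entry held 0 counts in all 4 total RNA libraries, while the AGO2-IP libraries held 0 and 4 (WT) or 1 and 0 (miR-379KO). Total RNA libraries held 17168230 to 22660743 gene counts and AGO2-IP libraries 5587611 to 17095021, of which the ribosomal RNA entry Rn45s took 72.2% to 80.5%. Without Rn45s and the Lars2 entry, 1115782 to 1875037 counts were left per AGO2-IP library, so a level in AGO2-IP rests on far fewer reads. Reads outside annotated genes made up 46.6% and 49.7% of uniquely aligned reads in the WT AGO2-IP libraries and 73.4% and 76.4% in the miR-379KO ones, a split that falls with genotype. The 9 mesangial and contractile marker genes had a summed level of 16600 to 21300 CPM (counts scaled to the library total, with TMM factors) in WT total RNA and 24200 to 24600 CPM in miR-379KO, with no overlap. Acta2, Tagln and Vim made up most of this sum, with means of 7988, 4493 and 5778 CPM in WT. Of the 8 marker genes of this list tested in total RNA, 4 had a negative log2 fold change and 0 passed. Thy1, also on the list, had 0 to 3 counts per total RNA library. Of 7 endothelial markers Pecam1, Cdh5 and Tie1 were at 0 in both WT total RNA libraries and in miR-379KO library B, while miR-379KO library A held 6, 4 and 2 counts of them and 36 of Emcn. Flt1, also on that list, had 154 to 498 counts, and the summed list was at 8.81 to 26.3 CPM in WT and 18.1 to 23.8 CPM in miR-379KO total RNA. The podocyte markers Wt1, Synpo and Podxl were detected in all 4. The summed podocyte markers were at 240 to 628 CPM in WT and 329 to 570 CPM in miR-379KO total RNA. The part of these marker levels in the results was not tested.

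In total RNA the MMC held transcripts of all 9 genes, over a wide range of levels. Levels between genes are compared as CPM per kilobase of exon, over the 4 total RNA libraries. Nrp1 was highest at a mean of 93.0, followed by Vegfa at 29.0 and Pdgfrb at 28.1. The ranges of Vegfa and Pdgfrb over libraries overlapped, so their order is not resolved. Pdgfa (18.5), Pdgfb (12.1), Adm (11.8) and Vegfb (8.76) came next, each overlapping its neighbour. Vegfc was lower at 2.84, and Pdgfra was near the detection limit at 0.0309. Of the PDGF receptor genes the one for PDGFR-β was thus far more abundant than the one for PDGFR-α, and among the VEGF ligands Vegfa was the most abundant per length.

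**Figure D1:**
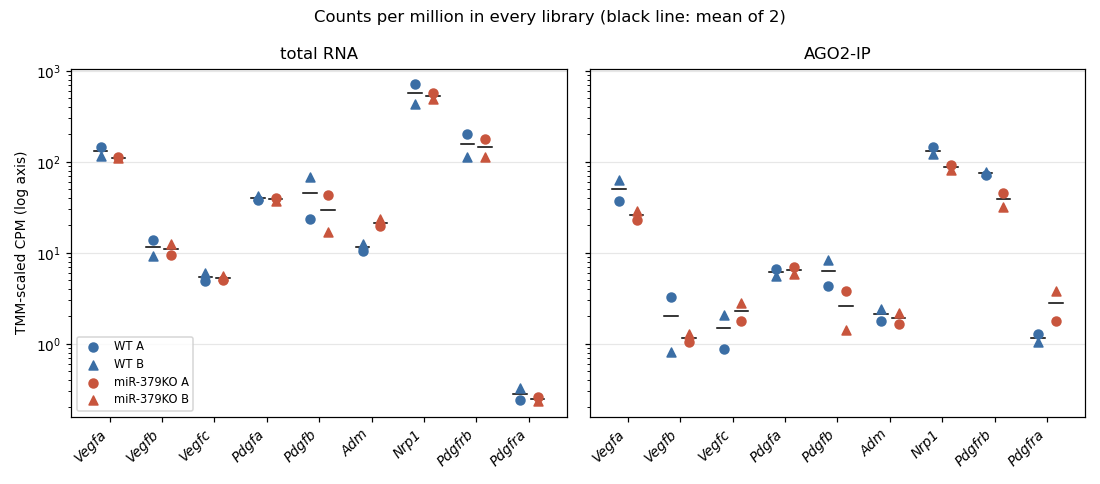
TMM-scaled CPM (log axis) of each gene in every library, with total RNA on the left and AGO2-IP on the right, circles for library A, triangles for library B and a black line at the mean of 2. In total RNA both miR-379KO libraries lie outside the WT range for Vegfa and Adm alone, and in AGO2-IP the miR-379KO libraries of Vegfa, Pdgfb, Nrp1 and Pdgfrb lie below both WT libraries.

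In total RNA Adm differed most between the genotypes, being higher in miR-379KO, and no gene of the set passed the test across all genes. Of the 8 genes tested none passed at an adjusted p under 0.05 (edgeR quasi-likelihood test, Benjamini-Hochberg over 12321 genes), where 0.0% of all genes passed. Across all genes 91 had an unadjusted p under 0.05, and DESeq2 called 0. At the cutoff of the study's own methods, 1.5-fold with an unadjusted p under 0.05, 1 of the 8, Adm, passed, against 0.682% of all genes (0.333% higher). Pdgfra, with 4 to 6 counts per library, was below the filter on low counts and was not tested.

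Among the VEGF ligands Vegfb, whose product binds that of Flt1, had total RNA counts of 230 and 169 (WT) against 219 and 212 (miR-379KO). On the TMM-scaled CPM scale these were 13.7 and 9.25 in WT against 9.52 and 12.5 in miR-379KO, and the genotypes overlapped. The log2 fold change was -0.06 ± 0.31 (SE). Vegfa, the main angiogenic ligand, had 145 and 116 CPM in WT against 112 and 111 CPM in miR-379KO. Both miR-379KO libraries lay below both WT libraries, a separation that 9.07% of all genes tested showed in this direction and 19.0% in either, and the log2 fold change was -0.23 ± 0.21. Vegfc, the lymphangiogenic ligand, had 4.89 and 6.02 CPM in WT and 4.96 and 5.52 CPM in miR-379KO, with a log2 fold change of -0.06 ± 0.31.

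Pdgfa, which encodes the ligand chain of PDGFR-α, was the steadiest of the PDGF genes, with 38.4 and 41.7 CPM in WT and 40.4 and 37.2 CPM in miR-379KO. Pdgfb, the chain that acts on mesangial cells through PDGFR-β, was at 23.3 and 67.6 CPM in WT and at 43.0 and 16.7 CPM in miR-379KO. The libraries of one genotype thus differed more than the genotypes, and the log2 fold change was -0.60 ± 0.63. Pdgfrb ranged from 112 to 202 CPM and Nrp1 from 430.0 to 710 CPM over the 4 libraries, with WT and miR-379KO overlapping in both. Adm was at 10.5 and 12.6 CPM in WT and at 19.5 and 23.3 CPM in miR-379KO. Both miR-379KO libraries were above both WT libraries, and 19.0% of all genes tested showed such a separation in either direction. The log2 fold change of 0.89 ± 0.24 had an unadjusted p of 0.0104 and an adjusted p of 0.9997 (edgeR).

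In AGO2-IP the genotypes differed for several of the genes, but not for Vegfb in the test on counts over the whole gene. Vegfa, Pdgfrb and Pdgfb were lower and Pdgfra higher in miR-379KO at an adjusted p under 0.05 (edgeR over 13505 genes). That is 4 of 9, against 30.9% of all genes tested, and 3 lower, against 9.52% of all genes. The share of genes called in this assay varied with their abundance. Among genes with a mean of over 1000 total RNA counts, the class of Vegfa, Pdgfrb and Nrp1, 26.4% were called lower and 0.192% higher, and the median over the class was -0.45 (log2 fold change). Among genes with up to 10 counts, the class of Pdgfra, 80.1% were called higher against 0.511% lower, and the median was 1.80. The other 5 genes lay in the class of 100 to 1000 counts, where 5.14% were called lower and 4.67% higher.

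For Vegfb the WT AGO2-IP libraries held 33 and 7 counts, against 9 and 10 for miR-379KO. As TMM-scaled CPM these were 3.24 and 0.809 in WT against 1.06 and 1.28 in miR-379KO. WT library A was above both miR-379KO libraries and WT library B below both, so the genotypes overlapped. A log2 fold change of -0.84 ± 0.55 (SE) resulted, with an adjusted p of 0.254 (edgeR). The direction rested on WT library A, since without it the log2 fold change was 0.45 (adjusted p = 0.682, edgeR). Without WT library B it was -1.51 (adjusted p = 0.0150, edgeR). Vegfb also had the highest GC content of the set (62.6% of its 1282 exon bases), and an offset for base composition and length brought the log2 fold change to -0.32. The study used another measure, reads at the predicted site relative to the rest of the 3′-UTR, and found less Vegfb enrichment in miR-379KO. It also reported a decrease of Vegfb by qPCR of AGO2-IP RNA. Neither measure was computed here, and whole-gene counts do not test them.

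Vegfa counts were 376 and 540 for WT against 195 and 223 for miR-379KO. Its level was 36.9 and 62.4 CPM in WT and 22.9 and 28.5 CPM in miR-379KO, with no overlap. With a log2 fold change of -0.95 ± 0.26 (adjusted p = 0.0101, edgeR), the miR-379KO level was 0.518 times the WT level. The call was lost without WT library B (-0.57, adjusted p = 0.200).

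Vegfc was at 0.882 and 2.08 CPM in WT and at 1.76 and 2.81 CPM in miR-379KO, from 9 to 22 counts per library. Its log2 fold change was 0.65 ± 0.45 (adjusted p = 0.280, edgeR), opposite in sign to those of Vegfa and Vegfb. Within the 3 VEGF ligands the share of Vegfb can be read in each library without scaling between libraries. It was 8.40% and 7.04% of their summed counts in WT total RNA and 7.54% and 9.68% in miR-379KO. In AGO2-IP it was 7.89% in WT library A (95% Wilson interval 5.68% to 10.9%) and 1.24% in WT library B (0.601% to 2.54%). The miR-379KO AGO2-IP libraries lay between them, at 4.11% (2.18% to 7.62%) and 3.92% (2.14% to 7.07%). The intervals cover counting error alone, and the 2 WT libraries did not overlap within it.

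**Figure D2:**
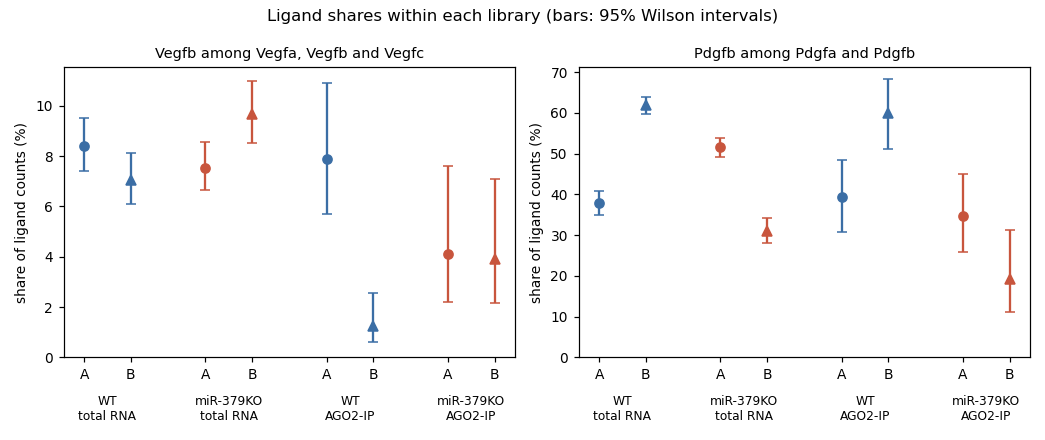
Share of Vegfb in the counts of Vegfa, Vegfb and Vegfc (left) and of Pdgfb in the counts of Pdgfa and Pdgfb (right), in percent for each library, with 95% Wilson intervals. For Vegfb the WT AGO2-IP libraries are the highest and the lowest of the 4 AGO2-IP libraries. For Pdgfb the WT libraries lie far apart in both assays, and the miR-379KO libraries do in total RNA. The intervals of the miR-379KO AGO2-IP libraries overlap for Pdgfb.

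AGO2-IP counts of Pdgfb were 44 and 72 for WT against 32 and 11 for miR-379KO. The levels were 4.31 and 8.33 CPM in WT and 3.75 and 1.41 CPM in miR-379KO, with no overlap on the TMM scaling. On raw totals without Rn45s, per kilobase, Pdgfb was at 4.24 and 9.44 in WT and at 5.64 and 2.40 in miR-379KO, which overlap. Pdgfb had a log2 fold change of -1.25 ± 0.42 (adjusted p = 0.0341, edgeR), and the call was lost in DESeq2 (-1.31, adjusted p = 0.118). It was lost too without WT library B (-0.76, adjusted p = 0.153) or without miR-379KO library B (-0.75, adjusted p = 0.223). Pdgfa, with 46 to 68 counts, was at 6.67 and 5.55 CPM in WT and at 7.04 and 5.88 CPM in miR-379KO, with a log2 fold change of 0.08 ± 0.26. The share of Pdgfb in the counts of these 2 ligand chains was 39.3% and 60.0% for the WT AGO2-IP libraries against 34.8% and 19.3% for miR-379KO. The total RNA shares were 37.8% and 61.9% for WT against 51.6% and 31.0% for miR-379KO, so WT and miR-379KO overlapped there.

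Among the receptors Pdgfrb had AGO2-IP counts of 723 and 675 (WT) against 389 and 249 (miR-379KO). The levels were 70.9 and 78.0 CPM in WT against 45.6 and 31.8 CPM in miR-379KO, with no overlap. This was a log2 fold change of -0.94 ± 0.26 (adjusted p = 0.0088, edgeR), or 0.521 times the WT level, and the call was lost without miR-379KO library B (-0.72, adjusted p = 0.160). Nrp1 was at 144 and 121 CPM in WT and at 92.1 and 81.5 CPM in miR-379KO. Both miR-379KO libraries were lower, but the log2 fold change of -0.61 ± 0.27 had an adjusted p of 0.0843 (edgeR). On raw totals without Rn45s, per kilobase, Nrp1 was at 74.4 and 72.2 in WT and at 72.9 and 73.5 in miR-379KO, which overlap. AGO2-IP counts of Pdgfra, 13 and 9 for WT against 15 and 30 for miR-379KO, were above those in total RNA. It reached the filter on low counts in 0 of the WT and 2 of the miR-379KO libraries, so it entered the test only through the group in which it was higher. Its log2 fold change was 1.24 ± 0.44 (adjusted p = 0.0366, edgeR), not called in DESeq2 (1.23, adjusted p = 0.247). Without miR-379KO library B it was 0.57 (adjusted p = 0.601), and without WT library A or B the adjusted p was 0.0550 and 0.116.

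Adm, which was higher in miR-379KO total RNA by the study's cutoff, was not so in AGO2-IP. Its counts were 18 and 21 for WT against 14 and 17 for miR-379KO, or 1.77 and 2.43 CPM against 1.64 and 2.17 CPM. The difference was -0.13 ± 0.40 on the log2 scale (adjusted p = 0.832, edgeR). In TMM-scaled CPM, 4 of the 9 genes were lower in miR-379KO with no overlap between the genotypes (Vegfa, Pdgfb, Pdgfrb and Nrp1), against 32.2% of all genes tested. On raw totals without Rn45s, of these 4 only Pdgfrb did not overlap, at 40.15 and 51.04 per kilobase in WT against 39.51 and 31.36 in miR-379KO. At the study's cutoff 5 passed, against 39.4% of all genes. Vegfa, Pdgfb, Pdgfrb and Nrp1 were lower, against 13.3%, and Pdgfra was higher, against 26.1%. With genes under a mean of 50 counts left out 0 of the 9 were called. Vegfb, Vegfc, Pdgfb, Pdgfra and Adm were among those left out and so were not tested at that setting. With all 8 libraries in one fit Vegfa alone was called (adjusted p = 0.0452, edgeR). With the offset for base composition and length Nrp1 was called lower (-0.95, adjusted p = 0.0127, edgeR) while Pdgfb (-0.96, adjusted p = 0.129, edgeR) and Pdgfra (1.12, adjusted p = 0.0560, edgeR) were not called. The values of all 9 genes with each library left out are plotted next to the fit on all 4 libraries.

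**Figure D3:**
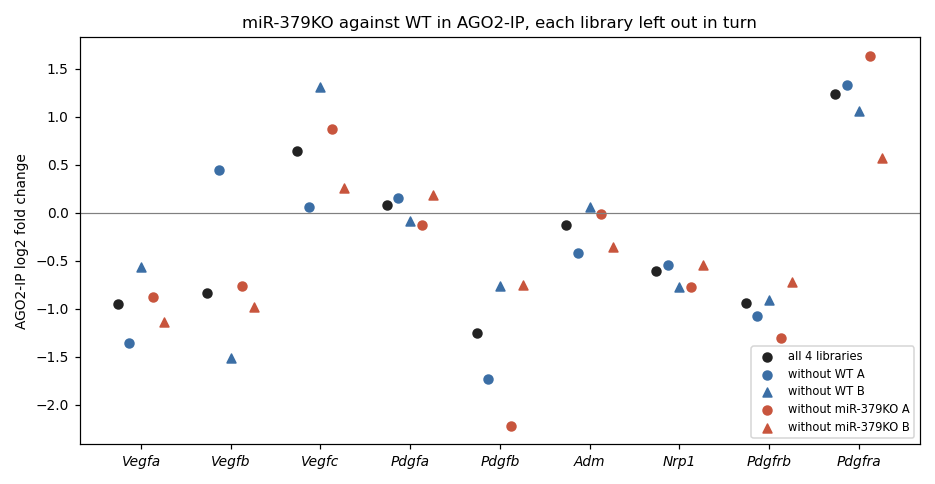
Log2 fold change of miR-379KO against WT in AGO2-IP for each gene, fitted on all 4 libraries (black) and with each library left out in turn (WT blue, miR-379KO red, circle for A, triangle for B). Vegfb, Pdgfa and Adm lie on both sides of 0, and Vegfa, Pdgfb, Nrp1, Pdgfrb, Vegfc and Pdgfra keep one sign.

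The difference between the AGO2-IP change and the total RNA change was then tested in one fit over all 8 libraries, since a change in abundance alone would move both assays. Of the 9 genes none passed (edgeR over 17429 genes), where 0.0% of all genes did. Across all genes 2733 had an unadjusted p under 0.05, and DESeq2 called 114 genes. For Vegfb the difference was -0.98 ± 0.67 on the log2 scale, with an unadjusted p of 0.160 and an adjusted p of 0.483 (edgeR). It turned to 0.57 without WT AGO2-IP library A. At the study's cutoff 3 of the 9 passed, against 15.7% of all genes. All 3 were lower, against 10.9% of all genes, and 0 were higher, against 4.79%. These were Adm at -1.22 ± 0.49, Pdgfrb at -1.08 ± 0.44 and Vegfa at -0.95 ± 0.39, with adjusted p values of 0.269, 0.273 and 0.273 (edgeR). Nrp1 (-0.74 ± 0.41) and Pdgfb (-0.84 ± 1.35) were negative too, while Vegfc (0.49 ± 0.64) and Pdgfra (1.23 ± 0.91) were positive.

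**Figure D4:**
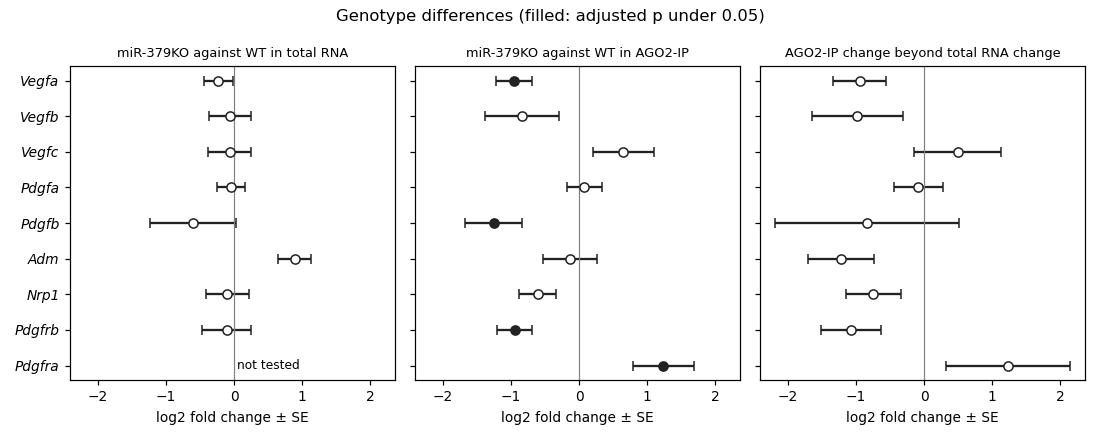
Log2 fold change ± SE of miR-379KO against WT in total RNA, in AGO2-IP, and of the AGO2-IP change beyond the total RNA change, for each gene, with filled circles for an adjusted p under 0.05. Filled circles occur in AGO2-IP alone, for Vegfa, Pdgfb, Pdgfrb and Pdgfra, and the error bar of Vegfb is wider than that of Vegfa.

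Recovery with AGO2 relative to total RNA was compared within each genotype in the same fit, at 2-fold with an adjusted p under 0.05. Assay and library protocol changed together in this contrast. In WT 3 of the 9 passed, against 43.1% of all genes. These 3 were higher in AGO2-IP, against 35.7% of all genes, and 0 were lower, against 7.33%. Pdgfra was higher by 4.45 ± 0.66, Pdgfrb by 1.43 ± 0.32 and Vegfa by 1.11 ± 0.28 on the log2 scale. With 4 to 6 counts per total RNA library, Pdgfra entered this test only through the AGO2-IP libraries, in which it was higher. Of the 7 endothelial markers, 5 with 0 or 1 count per WT total RNA library were called higher too, and 0 were called lower. The Vegfa call was lost with the offset for base composition and length (0.53, adjusted p = 0.111) and without WT AGO2-IP library B (0.36, adjusted p = 0.343), and the Pdgfrb call fell under 2-fold with the offset (0.90). Vegfb was at 0.03 ± 0.44 and was not called, and the sign turned under other scalings.

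In miR-379KO 3 of the 9 passed, against 61.0% of all genes. In AGO2-IP 2 were higher, against 41.6% of all genes, and 1 was lower, against 19.3%. Pdgfra was higher by 5.69 ± 0.64 and Vegfc by 1.07 ± 0.44 (adjusted p = 0.0400, edgeR), the latter lost in DESeq2 (adjusted p = 0.0545) and with the offset (0.24). Here too Pdgfra entered the test only through the AGO2-IP libraries. Adm was lower, at -1.21 ± 0.35 (adjusted p = 0.0050, edgeR), a call lost when genes with a mean under 50 counts were left out (adjusted p = 0.103). Vegfb was at -0.95 ± 0.49 (adjusted p = 0.0949, edgeR), and Vegfa and Pdgfrb, which had been called in WT, were at 0.16 ± 0.28 and 0.36 ± 0.31.

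Of 14 other genes of the families, 11 were tested in total RNA and none passed. The Vegfb receptor gene Flt1 was expressed, with total RNA counts of 432 and 154 (WT) and 498 and 307 (miR-379KO), while the main VEGF-A receptor gene Kdr had 0 to 2 counts per total RNA library. In AGO2-IP 8 were tested and 3 passed, against 30.9% of all genes, 2 higher (21.4% of all genes) and 1 lower (9.52%). Calcrl, the adrenomedullin receptor gene (1.503 ± 0.31, adjusted p = 0.0014), and Kdr (1.34 ± 0.46, adjusted p = 0.0298) were higher in miR-379KO and Nrp2, the paralog of Nrp1, was lower (-1.21 ± 0.32, adjusted p = 0.0130), all by edgeR. AGO2-IP counts of Kdr were 18 and 4 for WT against 23 and 25 for miR-379KO, and those of Calcrl 20 and 22 against 53 and 51. Kdr reached the filter on low counts in 0 of the WT and 2 of the miR-379KO libraries, so it entered the test only through the group in which it was higher. By total RNA counts Kdr lay in the class where 80.1% of genes were called higher, and Calcrl in the class of 10 to 100 counts, where 41.9% were. Pdgfc, an additional ligand of PDGFR-α, was at 21.3 and 21.5 CPM in WT AGO2-IP and at 15.8 and 12.9 CPM in miR-379KO, and was not called.

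Of 16 genes that carry the signal from these receptors, such as Grb2 and Shc1, none passed in total RNA. In AGO2-IP 15 of the 16 had a negative log2 fold change, with a median of -0.22 against -0.01 over all genes tested. Of the 16, 13 lay in the class of over 1000 total RNA counts, whose median of -0.45 was lower still. In this list 2 passed, both lower, against 9.52% of all genes and 26.4% of that class. These were Plcg1, a phospholipase that docks on activated receptors (-0.65 ± 0.23, adjusted p = 0.0326), and the adaptor gene Shc1 (-0.57 ± 0.22, adjusted p = 0.0497), by edgeR. Against total RNA, AGO2-IP was lower for 3 of the 16 in WT, where 7.33% of all genes were, and for 9 in miR-379KO, where 19.3% were. Mapk3 (-1.38 ± 0.27), Grb2 (-1.16 ± 0.24) and Hras (-1.37 ± 0.35) were those in WT. The 7.33% and 19.3% are over genes of all abundance classes. For this contrast the share within the class of over 1000 total RNA counts was not computed.

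Over the 8 libraries, with each assay centred on its own mean, the genes whose log2 CPM followed that of Vegfb most closely were Cep131 (Pearson r = 0.977), Mrpl51 (0.966), Setd6 (0.958), Evl (0.949) and Fut11 (0.944), of 10614 genes whose mean count reached 10 in both assays. The points share libraries, depth and base composition, and the correlations are given as a description.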

How the data were processed

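Per the labels, gene counts of 8 libraries on mm10 were deposited, and the study's methods name TopHat and HTSeq (0.6.0) counting against RefSeq genes. The values used are raw counts per gene as the authors deposited them, with rows that name no gene left out (reads in no gene were 6.41% to 8.81% of uniquely aligned reads in total RNA and 46.6% to 76.4% in AGO2-IP). The 9 genes, the other gene lists and the comparisons were chosen with earlier results of these data known, and all 9 genes are named in every comparison. Counts were tested with edgeR 4.0.16 (TMM factors, filterByExpr with a minimum count of 10, glmQLFit and glmQLFTest, robust), each assay on its own and all 8 libraries together for the contrasts across assays, with Benjamini-Hochberg adjustment over all genes tested. The SE is the size of the log2 fold change divided by the square root of F. DESeq2 1.42.0 was an alternative. Values of some single genes of the lists are not reported here. The fit was run on simulated counts with the same dispersion for every gene, which was not estimated from these libraries. That run does not measure the error rates of the fit on these data. CPM are scaled within an assay, so an AGO2-IP CPM and a total RNA CPM are not on one scale. Exon lengths, 3′-UTRs and coordinates came from the RefSeq annotation of GRCm38.p6, to which 98.7% of the entries were matched by symbol or synonym. AGO2-IP libraries carried reads of cross-linked RNA made with another protocol than total RNA. Counts of genes with an overlapping gene on the opposite strand (Adm, Nrp1, Vegfc) rely on stranded counting. Pdgfb, Pdgfra and Nrp1 also span a microRNA gene on the same strand, which stranded counting does not separate. The effect of these overlaps on the counts was not tested.

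The letters A and B were tested as a pairing of WT with miR-379KO libraries within an assay. The same-letter correlation of deviations was -0.106 in total RNA and 0.037 in AGO2-IP. This does not test whether the total RNA and AGO2-IP libraries of one genotype and letter are paired. The main fits across assays leave that pairing out, and the culture block given below includes it.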

Additional observations from a re-analysis of the deposited data

How the results depend on the processing

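The values that crossed 0 or moved under another setting are given here, and the cause was not tested. The filter at a mean of at least 50 counts left Vegfb, Vegfc, Pdgfb, Pdgfra and Adm out of the AGO2-IP test. Of the 9 genes, 4 were called in AGO2-IP, and 2 in DESeq2, 0 with a mean of at least 50 counts, 2 with the replicate block and the GC and length offset, 1 with all 8 libraries in one fit, and 1 to 4 with one library left out. Past the study's cutoff 5 became 0 with the 50-count mean, 3 in one fit, and 2 to 6 with one library left out, and in total RNA 1 became 0 to 1. Over all genes 4173 AGO2-IP calls became 802 in DESeq2, 274 with the 50-count mean, 686 in one fit, and 918 to 3337 with one library left out. The share of them that were higher, 69.2%, was 54.1% with no filter, 54.9% with the offset and 85.4% with TMM factors taken from genes detected in total RNA (added after seeing the data). That scaling moved the median of all genes to 0.16, the offset to -0.10 and no filter to 0.36, against -0.01. For the AGO2-IP change beyond the total RNA change, 0 calls over all genes became 114 in DESeq2, 2 with the 50-count mean, 956 with the offset, 8 with the replicate block, 1838 with block and offset, 1108 with a culture block (each genotype and letter as one culture, added after seeing the data), 2 with the added TMM factors, and 0 to 1547 with one library left out. The 1547 were without WT total RNA library B. Of the 9 genes 2 were called with block and offset (Nrp1 and Adm) and 1 with the culture block (Pdgfrb). The crossed replicate block, added after seeing the data, called 1 gene of all in total RNA.

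In total RNA the log2 fold change turned to 0.014 for Vegfb and 0.016 for Pdgfa in one fit, and for Nrp1 to 0.077 with the offset and 0.081 with block and offset. With one library left out it ran from -0.32 to 0.25 for Vegfb, -0.20 to 0.098 for Vegfc, -0.098 to 0.018 for Pdgfa, -1.42 to 0.36 for Pdgfb, -0.47 to 0.37 for Pdgfrb and -0.42 to 0.31 for Nrp1. In AGO2-IP Pdgfa turned to -0.13 with no filter and -0.067 in one fit, and Adm to 0.042 with the added TMM factors, and with one library left out Vegfb ran from -1.51 to 0.45, Pdgfa from -0.13 to 0.18 and Adm from -0.42 to 0.061. For the difference of the changes Pdgfa turned to 0.18 in DESeq2, 0.18 with RLE factors, 0.32 with the 50-count mean and 0.24 with the added factors. With one library left out Vegfb ran from -1.35 to 0.57, Pdgfa from -0.28 to 0.29 and Pdgfb from -1.98 to 0.026.

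In WT AGO2-IP against total RNA, 1 of the 9 was called with the offset and 1 with block and offset, and 7507 calls over all genes became 1829 with the 50-count mean. Vegfb turned to -0.077 in DESeq2, -0.062 with RLE factors, -0.43 with the offset, -0.020 with the replicate block, -0.45 with block and offset, -0.091 with the culture block, -0.037 with the added factors and -0.015 without Rn45s and Lars2. Adm turned to -0.056 in DESeq2, -0.058 with RLE factors, -0.28 with the offset, -0.29 with block and offset, -0.031 with the added factors and -0.033 without Rn45s and Lars2, and Nrp1 to -0.56 with the offset and -0.56 with block and offset. With one library left out Vegfb ran from -1.55 to 0.35, Vegfc from -0.45 to 0.87, Pdgfb from -1.24 to 0.67 and Adm from -0.54 to 0.23. In miR-379KO the 9 gave 1 call with the 50-count mean, where Pdgfra was not tested, and 5 with block and offset. Over all genes 10627 calls became 16163 with no filter and 3380 with the 50-count mean. Vegfa turned to -0.49 with the offset and -0.49 with block and offset, Pdgfa to 0.22 and Nrp1 to 0.19 with the 50-count mean, and Pdgfrb ran from -0.031 to 0.72 with one library left out. The replicate block alone changed no call of the 9 genes at an adjusted p under 0.05, and at the study's cutoff in AGO2-IP it left 4 of 5, without Nrp1. The 0 genes with the 7-base seed match became 2 with the 6-base match.

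Depth limits Vegfb, with 7 to 33 counts per AGO2-IP library, Vegfc, with 9 to 22, and Pdgfra, with 9 to 30 there and 4 to 6 per total RNA library. A fit without one library assumes that the lone library of its group varies like the others.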
